A study of Bos taurus with 30 samples.

Results

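Heat shock proteins and folding chaperones were examined in the lining of the pregnant bovine uterus, as the ratio between the caruncles, the knobs to which the placenta attaches, and the gland-bearing intercaruncular tissue that lies between them. The members are all probes whose annotated symbol belongs to the HSP, DNAJ, CCT or PDIA families or is CALR or CANX, with the proteoglycan gene HSPG2 left out. This rule found 54 of 13824 probes, for 51 genes, and used no measured value. HSPA4, DNAJB6 and DNAJC17 had 2 probes each. No probe with a single symbol carried HSP90AA1, HSP90AB1, HSPD1 or CANX, so the cytosolic HSP90 proteins, the mitochondrial chaperonin HSP60 and calnexin were not analysed here. By role the probes comprised 6 for cytosolic HSP70 proteins, 18 for cytosolic or otherwise placed J-domain proteins, 7 for the chaperonin TRiC, 11 for the endoplasmic reticulum, 7 for mitochondria, 4 for small heat shock proteins and 1 for HSPBAP1, which binds a small heat shock protein.

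Chaperones hold newly made or damaged proteins until they fold. HSP70 proteins bind exposed stretches of a chain and are driven through their cycle by J-domain proteins, TRiC is a barrel of different CCT subunits in which actin and tubulin fold, and small heat shock proteins hold unfolding proteins without using ATP. In the endoplasmic reticulum, BiP (HSPA5), GRP94 (HSP90B1), calreticulin and the protein disulfide isomerases fold what the cell secretes. Heat and other insults induce the first kinds through heat shock factors, whereas a load of unfolded secretory protein induces those of the endoplasmic reticulum. The endometrium secretes protein from its glands and lays down collagen in its stroma, and both products pass through that compartment.

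RNA of both tissues of 1 animal was hybridised to each array, and each of 15 cows had 2 arrays. The pregnancies came from artificial insemination (AI), from transfer of an embryo fertilised in vitro (IVF-ET) or from transfer of a cloned embryo, obtained by somatic cell nuclear transfer (SCNT), with 5 cows each. The labels name no breed, age, stage of pregnancy or treatment, and non-pregnant cows were not analysed here. Every value below is a log ratio of the tissues, taken as log2 because the labels do not state the base, and not a level.

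The side of the ratio on which each tissue stands is not settled by the labels, so values are given as lying on the positive or the negative side, and no tissue is called higher. The values were read as already turned from dyes to tissues. The 2 arrays of a cow agreed weakly, with r over all probes between -0.389 and 0.791 and a median of 0.124, so a cow's own value carries large error. IVF-ET replicate 3 had both arrays labelled in the same dye orientation and was left out of the fit, which holds 14 cows. SCNT replicate 5 stood apart: its SD over probes was 0.702, against 0.216 to 0.324 in the other fitted cows. Epithelial marker genes (9 of 12 listed were measured) had medians between -0.54 and 0.34 in the AI cows, between 0.26 and 0.81 in the IVF-ET cows and between 0.36 and 0.82 in the SCNT cows. Stromal markers (12 of 14 measured) lay the other way, between -0.08 and 0.62 in AI, between -0.76 and -0.24 in IVF-ET and between -1.10 and -0.38 in SCNT. Of these, 4 epithelial and 6 stromal genes passed the threshold in SCNT cows, where 1.82% of all probes did. Of 9 leukocyte markers measured, 1 passed there. The calls in SCNT cows rest on single cows, as given below. The group means of AI cows correlated over probes at -0.271 with those of IVF-ET and at -0.293 with those of SCNT, while IVF-ET and SCNT correlated at 0.455.

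No chaperone probe passed an adjusted p of 0.05 (limma, Benjamini-Hochberg over 13818 probes) in any of 7 comparisons. In SCNT cows 0 of 54 members passed, where 1.82% of all probes did. In IVF-ET cows, in AI cows and over all cows 0 members passed, where the share of all probes was 0% each time. Between groups, 0 members passed for SCNT against AI (0.948% of all probes), for IVF-ET against AI (0.0579%) and for SCNT against IVF-ET (0%). These shares rest on single cows. Without SCNT replicate 1, 2, 3 or 4 the 252 probes called in SCNT cows became 2, 95, 108 and 167, and the other fits without a cow gave 183 to 325. For SCNT against AI the 131 probes became 5 without AI replicate 3, 7 without AI replicate 4 and up to 269 without AI replicate 1. For IVF-ET against AI the 8 probes became 0 to 37. With only the first array of AI replicate 1, 0 probes passed in each of the 3. At an unadjusted p under 0.05, the limma fit gave 10 members in SCNT cows (18.5%, against 14.8% of all probes), 3 in IVF-ET (5.56% against 7.95%), 4 in AI (7.41% against 4.37%) and 3 over all cows (5.56% against 9.52%). It gave 6 members for SCNT against AI (11.1% against 12.9%), 4 for IVF-ET against AI (7.41% against 8.37%) and 0 for SCNT against IVF-ET (0% against 4.41%). The median size of a member's mean was 0.11 in SCNT cows, where it was 0.10 over all probes, 0.11 against 0.09 in IVF-ET and 0.08 against 0.07 in AI. The 95% interval of the mean lay within 1.5-fold either way for 45 of 54 probes in SCNT, 47 in IVF-ET and 49 in AI. A larger mean ratio thus lies outside the interval for most chaperones, if the values are tissue ratios as read here. The intervals use a spread per probe shared by the groups. Over the members, the median r of a cow's 2 arrays was 0.0596.

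**Figure D1:**
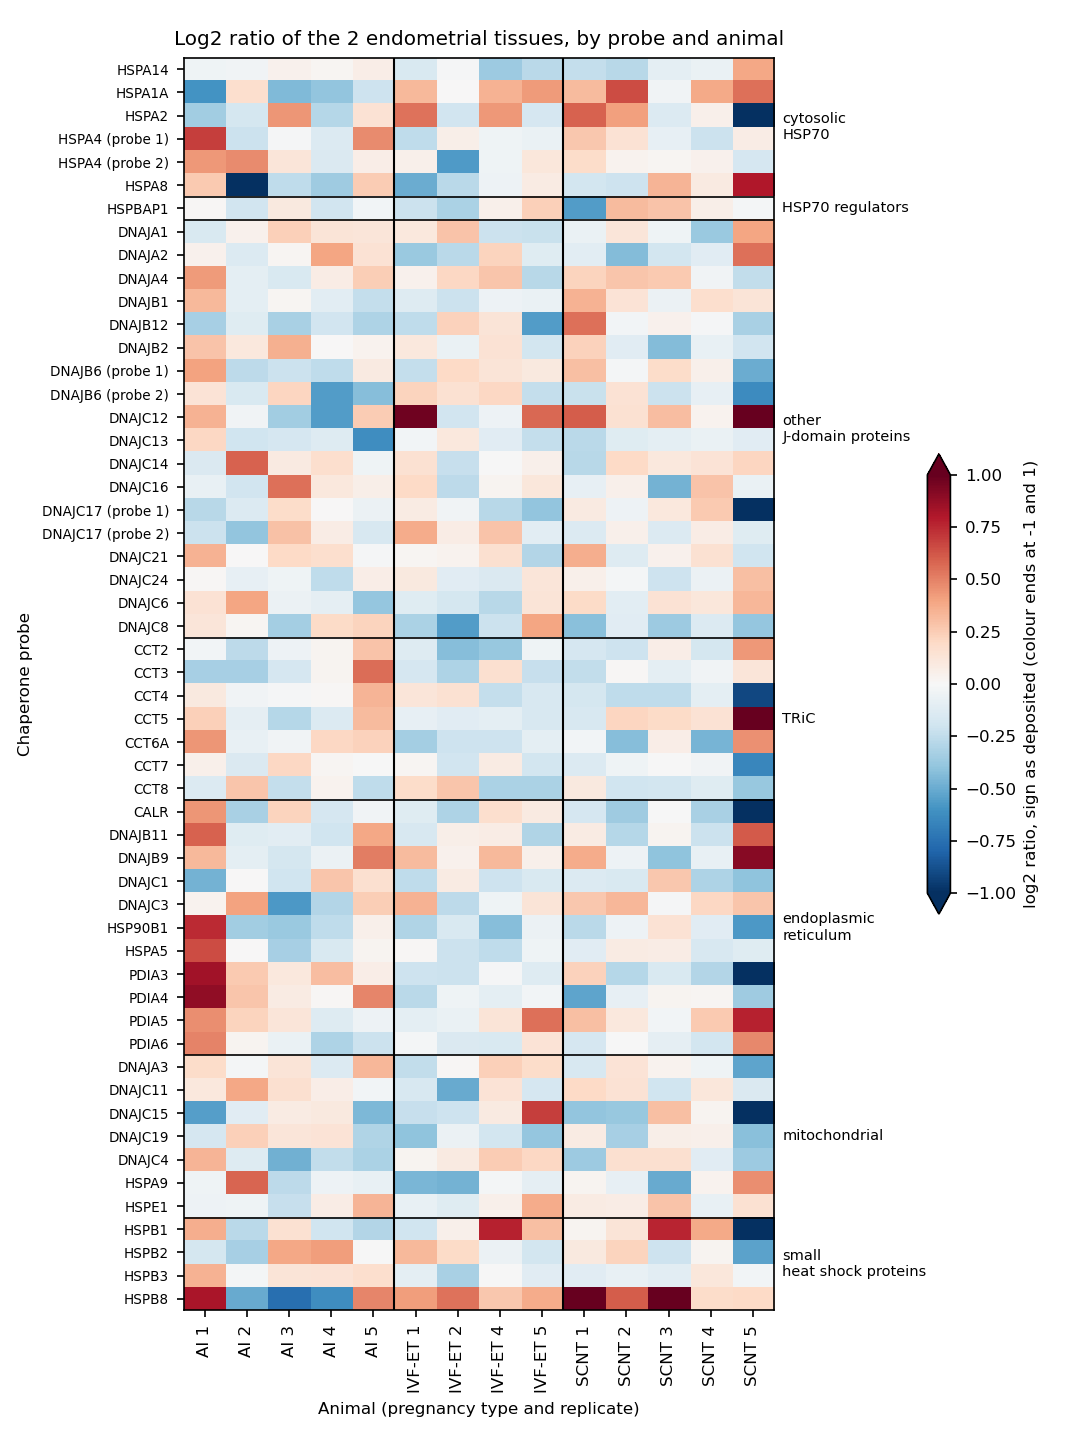
Log2 ratio of the tissues for the 54 chaperone probes (rows, grouped by role) in the 14 fitted cows (columns). Colour gives the ratio with its deposited sign and ends at -1 and 1; most cells are pale, and the strongest colours gather in SCNT replicate 5, with values down to -2.99 and up to 2.04.

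Counted by sign, the probes on the negative side in every IVF-ET cow numbered 11 of 54, or 20.4%, where 11% of all probes did this. They were HSPA14, DNAJB1, CCT2, CCT5, CCT6A, HSP90B1, PDIA3, PDIA4, DNAJC19, HSPA9 and HSPB3, with means between -0.26 and -0.11. On the positive side in every IVF-ET cow were 4 members (7.41%, against 10.9% of all probes), namely HSPA1A, DNAJB9, DNAJC4 and HSPB8. The SCNT cows had 2 members on the positive side throughout, DNAJC12 and HSPB8 (3.7% against 7.36%), and 5 on the negative side, DNAJC13, DNAJC8, CCT4, CCT7 and CALR (9.26% against 6.98%). In AI cows DNAJB2, PDIA3 and PDIA4 lay on the positive side throughout (5.56% against 2.73%) and DNAJB12 on the negative side (1.85% against 2.2%). None of these members passed the limma test in its group. The sign of a cow is that of the mean of its 2 arrays, which can differ in sign.

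HSPA1A, the stress-inducible cytosolic HSP70, came nearest to the threshold. Its log2 ratio was -0.60, 0.17, -0.44, -0.39 and -0.21 in the AI cows, 0.33, 0.01, 0.35 and 0.42 in the IVF-ET cows, and 0.32, 0.66, -0.04, 0.38 and 0.55 in the SCNT cows. In AI 4 of 5 cows were negative, in IVF-ET 4 of 4 were positive and in SCNT 4 of 5 were positive, so AI replicate 2 is the AI cow that overlaps the other groups. Some of these signs rest on arrays that disagree. Before the dye effect was removed, the arrays of IVF-ET replicate 2 read -0.87 and 0.89, and those of AI replicate 2 read 0.62 and -0.29. Arrays also differed in sign in AI replicate 1 and in SCNT replicates 1 and 3. The HSPA1A means were -0.29 ± 0.11 (limma SE, n = 5) in AI, 0.28 ± 0.12 (n = 4) in IVF-ET and 0.37 ± 0.11 (n = 5) in SCNT. Here and below, a limma SE or 95% interval uses a spread per probe shared by the groups. It is not the spread of the cows of that group alone. SCNT cows differed from AI cows by 0.67 ± 0.16 (95% interval 0.33 to 1.00), with a limma adjusted p of 0.0597, which misses the threshold. IVF-ET cows differed from the same AI cows by 0.57 ± 0.17 (limma adjusted p = 0.304). SCNT and IVF-ET differed by 0.10 (95% interval -0.26 to 0.45).

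The call on HSPA1A turned on single cows and on how the sign was read. Leaving out each cow in turn, the difference of SCNT from AI ranged from 0.59 to 0.78, and it passed in 2 of these limma fits, without AI replicate 2 or without SCNT replicate 3, at adjusted p values of 0.0494 and 0.0477. HSPA1A is then 1 of 54 members, or 1.85%, where 0.253% and 0.405% of all probes passed. It also passed when cows were weighted by their quality (0.64, limma adjusted p = 0.0404), where 1.92% of all probes did. With the sign of the AI arrays turned the difference was 0.08, and with all values read as dye ratios it was 0.19, so that over the settings the limma adjusted p ranged from 0.0404 to 1.00. The second array of AI replicate 1 read -1.47 and its first 0.28, and with the first alone the difference was 0.49 (limma adjusted p = 0.308). The probe is annotated with 2 gene IDs of the same symbol, and inducible HSP70 genes are near-identical copies, so which copy gave the signal is uncertain. Epithelial and stromal marker medians move between AI and the other groups along with HSPA1A, as given above, and their part in its difference was not tested. In tissue RNA, fewer cells of a type and less RNA per cell cannot be told apart.

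The other HSP70 proteins showed no common side. HSPA8, the constitutive HSP70 of every cell, had ratios of 0.26, -1.04, -0.25, -0.36 and 0.25 in AI, -0.49, -0.27, -0.05 and 0.08 in IVF-ET and -0.18, -0.21, 0.34, 0.09 and 0.80 in SCNT. Each group held cows on both sides, and the limma adjusted p of its SCNT mean was 0.722. The AI value of -1.04 came from arrays at -1.71 and -0.38. HSPA4, an HSP110-type partner that exchanges the nucleotide of HSP70, had 2 probes with group means from -0.11 to 0.19. HSPA14, a ribosome-associated HSP70, lay within 0.07 of 0 in every AI cow and between -0.37 and -0.01 in the IVF-ET cows. HSPA2, an HSP70 best known from sperm development, read 0.59, 0.41, -0.14 and 0.05 in SCNT replicates 1 to 4 and -1.57 in replicate 5, so its SCNT mean of -0.13 becomes 0.23 without that cow.

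Among J-domain proteins, the common HSP70 partners lay near 0. DNAJA1, which brings clients to HSC70, had group means of 0.08, -0.01 and 0.01 in AI, IVF-ET and SCNT, each with a limma SE between 0.10 and 0.12. DNAJB1, the heat-inducible HSP40, read 0.33, -0.10, 0.02, -0.10 and -0.24 in AI, -0.13, -0.22, -0.05 and -0.07 in IVF-ET and 0.35, 0.14, -0.06, 0.17 and 0.13 in SCNT. The IVF-ET cows were all negative and 4 of 5 SCNT cows positive, and the SCNT mean of 0.14 ± 0.08 had a limma adjusted p of 0.45. Before the dye effect was removed, the DNAJB1 arrays differed in sign in every fitted IVF-ET cow. They also did so in SCNT replicates 2, 3, 4 and 5 and in AI replicates 2, 3 and 4. DNAJB12, a membrane-anchored J protein that takes part in the degradation of misfolded membrane proteins, read -0.33, -0.12, -0.32, -0.19 and -0.31 in AI. All 5 AI cows were thus negative, with a mean of -0.26 ± 0.12 and a limma adjusted p of 1.00, while the IVF-ET and SCNT cows lay on both sides. The DNAJB12 arrays of AI replicate 1 read -1.14 and 0.47 before the dye effect was removed. DNAJC8, a J protein found with splicing factors and picked after its values were seen, read -0.42, -0.11, -0.36, -0.14 and -0.38 in SCNT (mean -0.28 ± 0.12, limma adjusted p = 0.253).

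**Figure D2:**
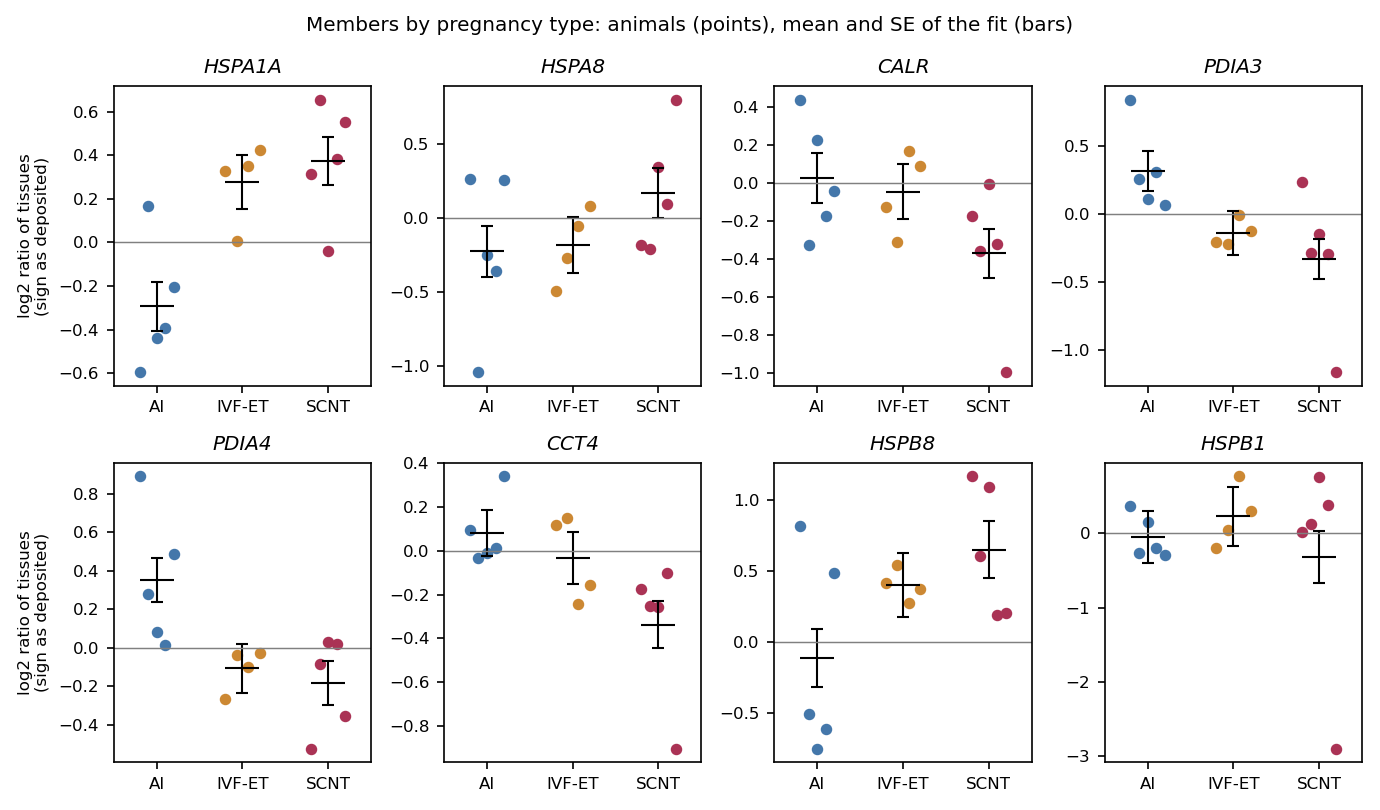
Log2 ratio of the tissues, sign as deposited, for 8 chaperones in the 3 pregnancy types. Points are cows and bars are the mean and SE of the limma fit; HSPA1A lies mainly below 0 in AI and above it in the other groups, PDIA3 and PDIA4 lie above 0 in all 5 AI cows, and HSPB1 has 1 SCNT cow at -2.91.

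The subunits of TRiC did not lie together, although they form 1 complex. In SCNT cows CCT4 read -0.18, -0.25, -0.26, -0.10 and -0.91, all negative, with a mean of -0.34 ± 0.11 (limma adjusted p = 0.124). CCT5 read -0.16, 0.22, 0.19, 0.14 and 1.01, with 4 of 5 cows positive and a mean of 0.28 ± 0.13 (limma adjusted p = 0.317). SCNT replicate 5 gave the extreme of both, and without it the SCNT means were -0.20 for CCT4 and 0.10 for CCT5. CCT7 was negative in all 5 SCNT cows, between -0.65 and -0.00, and its mean of -0.17 became -0.05 without that cow. CCT2, CCT3, CCT6A and CCT8 had SCNT means between -0.16 and -0.01.

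In IVF-ET cows all 7 subunits had means below 0, from -0.24 for CCT2 to -0.03 for CCT4, and 35 of the 54 members did. CCT2 read -0.13, -0.43, -0.38 and -0.04 in those cows (limma adjusted p = 0.62). CCT6A read -0.34, -0.21, -0.20 and -0.10 in IVF-ET and 0.44, -0.07, -0.04, 0.20 and 0.23 in AI. Every AI cow lay above every IVF-ET cow, by a narrow margin, and the difference of -0.37 ± 0.17 had a limma adjusted p of 0.6. The share of all probes that separate these groups in this way was not counted. Before the dye effect was removed, the CCT6A arrays of AI replicates 2, 3, 4 and 5 and of IVF-ET replicate 5 differed in sign. With the sign of the AI arrays turned, the AI mean of CCT6A was -0.15, on the side of the IVF-ET cows. In AI cows the subunit means lay between -0.06 and 0.15. TCP1, the subunit known as CCT1, was measured outside the members and had means of 0.03, -0.12 and -0.11 in AI, IVF-ET and SCNT.

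**Figure D3:**
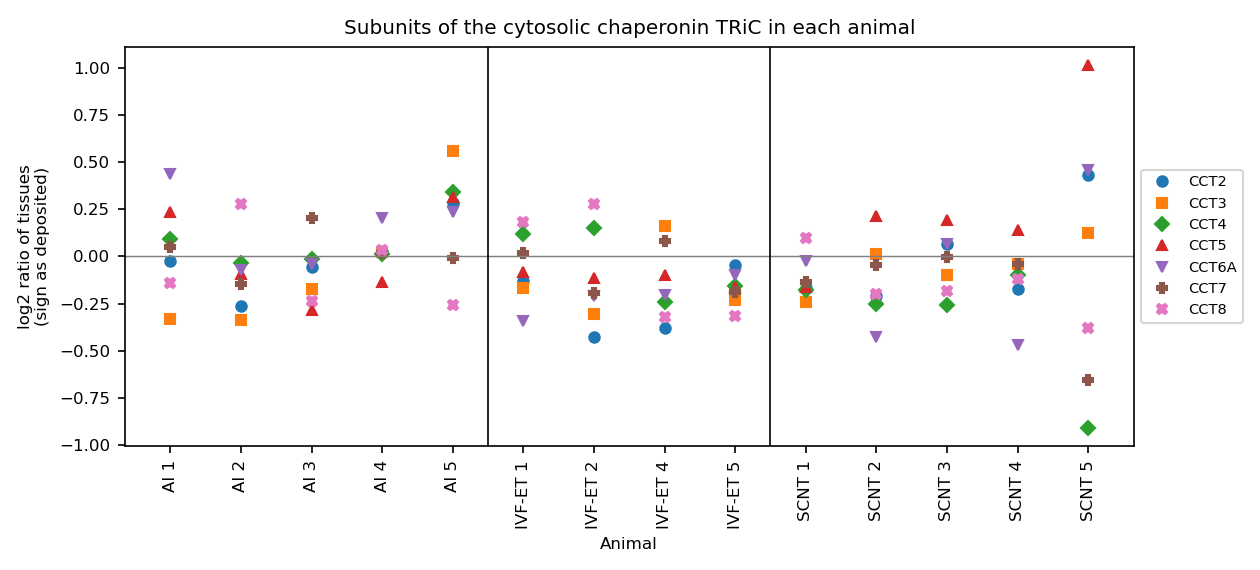
Log2 ratio of the tissues, sign as deposited, for the 7 CCT subunits in each of the 14 fitted cows. Within a cow the subunits spread over 0.27 to 0.82 in 13 cows and over 1.92 in SCNT replicate 5, where CCT5 stands at 1.01 and CCT4 at -0.91.

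In the endoplasmic reticulum, the disulfide isomerases PDIA3 (ERp57, which works on glycoproteins with calreticulin) and PDIA4 (ERp72) had the largest positive AI means of all members. PDIA4 read 0.89, 0.28, 0.08, 0.01 and 0.49 in AI, -0.27, -0.04, -0.10 and -0.03 in IVF-ET and -0.52, -0.09, 0.03, 0.02 and -0.35 in SCNT. All AI cows were positive and all IVF-ET cows negative, and the lowest AI cow lay below the highest SCNT cow. Some of these signs rest on arrays that disagree. Before the dye effect was removed, AI replicate 3 read 0.34 and -0.18, AI replicate 4 -0.42 and 0.45, and AI replicate 5 -0.15 and 1.13. AI replicate 1 read -0.00055 and 1.78. IVF-ET replicate 2 then read 0.36 and -0.44, and IVF-ET replicate 5 read 0.24 and -0.29. The PDIA4 means were 0.35 ± 0.11 in AI, -0.11 ± 0.13 in IVF-ET and -0.18 ± 0.11 in SCNT. SCNT differed from AI by -0.53 ± 0.16 (limma adjusted p = 0.138), and IVF-ET from the same AI cows by -0.46 ± 0.17 (limma adjusted p = 0.456).

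PDIA3 read 0.84, 0.26, 0.11, 0.31 and 0.06 in AI, -0.20, -0.22, -0.01 and -0.13 in IVF-ET and 0.23, -0.29, -0.15, -0.29 and -1.17 in SCNT. Again every AI cow was positive and every IVF-ET cow negative, and 1 of 5 SCNT cows fell among the AI values. The share of all probes split this way between AI and IVF-ET was not counted. Before the dye effect was removed, the arrays of AI replicates 1, 3, 4 and 5 and of IVF-ET replicates 2, 4 and 5 differed in sign. The difference of SCNT from AI was -0.65 ± 0.21 (limma adjusted p = 0.165), and without SCNT replicate 5 it was -0.44. AI replicate 1 carried much of both AI means: without it they were 0.19 for PDIA3 and 0.22 for PDIA4. With the sign of the AI arrays turned, the difference of SCNT from AI was -0.02 for PDIA3 and 0.17 for PDIA4.

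Calreticulin (CALR), a calcium-binding chaperone of glycoproteins, read 0.44, -0.33, 0.23, -0.17 and -0.04 in AI, -0.12, -0.31, 0.17 and 0.09 in IVF-ET and -0.17, -0.36, -0.01, -0.32 and -0.997 in SCNT. All SCNT cows were negative and the other groups lay on both sides. The SCNT mean was -0.37 ± 0.13 (limma adjusted p = 0.174) and -0.21 without SCNT replicate 5. HSPA5 (BiP), the central HSP70 of the compartment, had ratios of 0.65, 0.01, -0.34, -0.15 and 0.03 in AI, 0.01, -0.21, -0.25 and -0.04 in IVF-ET and -0.12, 0.08, 0.07, -0.16 and -0.12 in SCNT. HSP90B1 (GRP94) read 0.75, -0.35, -0.37, -0.25 and 0.05 in AI, -0.30, -0.15, -0.42 and -0.06 in IVF-ET and -0.27, -0.05, 0.15, -0.12 and -0.57 in SCNT. For both, AI replicate 1 was the highest cow of the 14, and no group mean of either passed. PDIA6, another disulfide isomerase, had means between -0.05 and 0.01 in the 3 groups.

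The height of AI replicate 1 came from 1 of its arrays. On its second array 9 of 11 probes of the endoplasmic reticulum were positive and their median was 1.04, while on its first array 5 of 10 were positive and the median was -0.01. PDIA3 stood at 1.57 on the second array and 0.12 on the first, PDIA4 at 1.55 on the second, HSPA5 at 1.37 and -0.08, DNAJB11 (an HSP40 of the compartment) at 1.34, PDIA6 at 1.08, HSP90B1 at 1.04 and PDIA5 at 1.01. These 7 probes were the only members over 1 on that array, where 1.78% of all probes were. DNAJC1 and DNAJC3 were below 0 there, at -0.51 and -0.07. On the other 29 arrays the median of these probes lay between -0.34 and 0.32.

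Markers of other cells also moved on that array. Stromal markers had a median of 1.89 on the second array of AI replicate 1 (9 of 12 positive, from -0.22 to 2.98) and -0.97 on the first. Smooth muscle markers had a median of 1.37 on the second (4 of 6 positive, from -0.17 to 2.93) and -0.19 on the first. SERPINH1, the collagen chaperone, read 1.79 and -0.73 on these arrays, and P4HB, a disulfide isomerase that is also a subunit of collagen prolyl hydroxylase, read 1.01 on the second. The part of these cells in the chaperone values was not tested, and over all probes the arrays of this cow correlated at 0.0169.

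**Figure D4:**
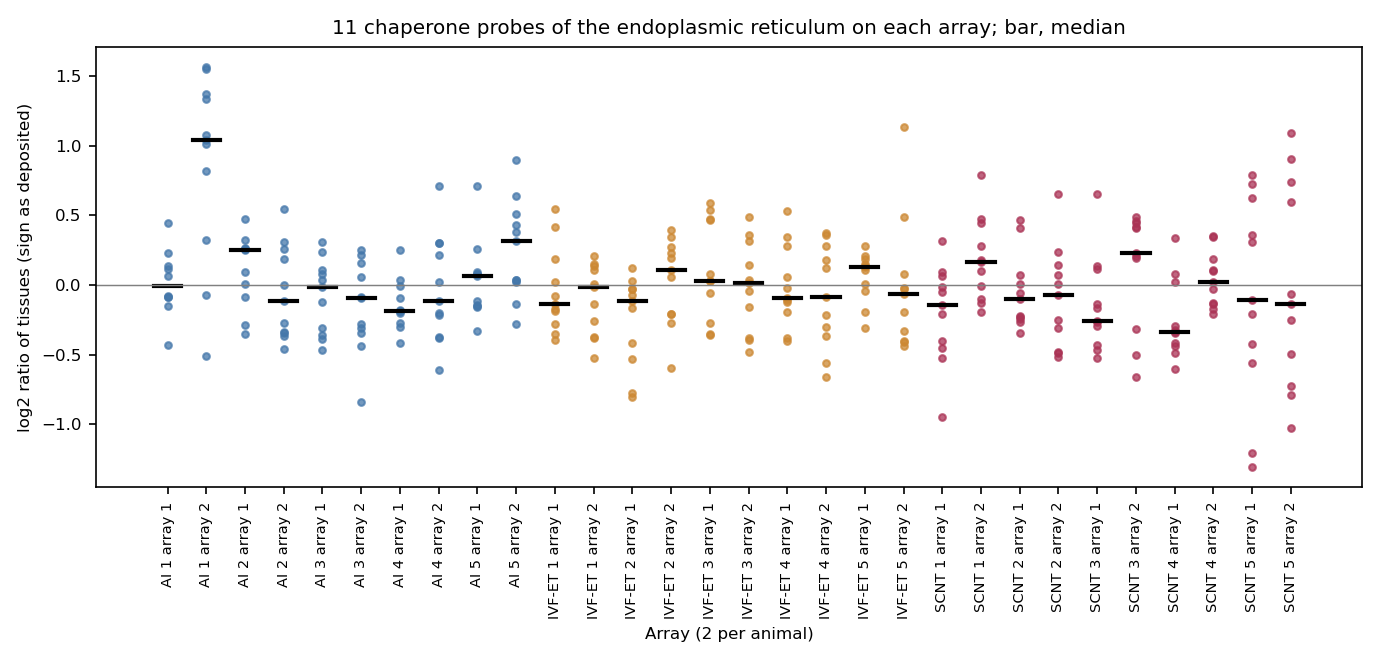
Log2 ratio of the tissues, sign as deposited, for the 11 chaperone probes of the endoplasmic reticulum on each of the 30 arrays. Points are probes and bars the median of an array; the second array of AI replicate 1 has its median at 1.04, and the others lie between -0.34 and 0.32.

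Mitochondrial chaperones lay on both sides. HSPA9 (mortalin), the HSP70 of the mitochondrial matrix and part of the protein import motor, read -0.05, 0.58, -0.26, -0.05 and -0.07 in AI, -0.45, -0.47, -0.02 and -0.09 in IVF-ET and 0.02, -0.09, -0.50, 0.03 and 0.47 in SCNT. The IVF-ET cows were all negative, with a mean of -0.26 ± 0.14. DNAJC19, a J protein of the inner membrane, read -0.40, -0.06, -0.18 and -0.39 in IVF-ET. Its mean of -0.26 ± 0.11 had the smallest adjusted p of any member in IVF-ET cows, 0.581 in limma. HSPE1 (HSP10), the lid of the HSP60 barrel, had means of 0.02, 0.06 and 0.11 in AI, IVF-ET and SCNT, with limma SEs between 0.09 and 0.10.

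HSPB8, a small heat shock protein that works with BAG3 in clearing damaged protein by autophagy, had the largest positive mean of the members. It read 1.17, 0.60, 1.09, 0.19 and 0.20 in SCNT, 0.41, 0.54, 0.27 and 0.37 in IVF-ET and 0.82, -0.51, -0.75, -0.62 and 0.49 in AI. All 9 of these SCNT and IVF-ET cows were positive, and the AI cows lay on both sides and overlapped them. Before the dye effect was removed, the HSPB8 arrays of SCNT replicate 5 read 0.71 and -0.31 and those of IVF-ET replicate 5 read 0.97 and -0.23. Arrays also differed in sign in AI replicates 1 and 2. The SCNT mean was 0.65 ± 0.20 (95% interval 0.22 to 1.08), or 1.57-fold, with a limma adjusted p of 0.12, and the IVF-ET mean was 0.40 ± 0.23. The IVF-ET mean depends on replicate 3, which was left out: with that cow kept it was 0.68 with its first array turned and -0.01 with its second array turned. SCNT differed from AI by 0.76 ± 0.29 (limma adjusted p = 0.236). With cows weighted by quality the SCNT mean of HSPB8 passed (0.58, limma adjusted p = 0.0409), as HSPA1A did, which makes 2 of 54 members or 3.7% against 5.36% of all probes. Its adjusted p was lowest there, and highest when values were read as dye ratios (mean -0.12, limma adjusted p = 0.849). Without AI replicate 1 the difference was 1.00, with a limma adjusted p of 0.0609.

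HSPB1 (HSP27), the small heat shock protein tied to the actin skeleton, read 0.03, 0.13, 0.77, 0.38 and -2.91 in SCNT. The first 4 of these cows were positive, with a mean of 0.32, and the mean over all 5 was -0.32 ± 0.35, so SCNT replicate 5 turned the sign. In AI HSPB1 read 0.37, -0.27, 0.15, -0.20 and -0.29, and in IVF-ET -0.20, 0.05, 0.77 and 0.30, so these groups lay on both sides. The limma SE of 0.35 uses the spread shared by the groups, and the SCNT cows spread more widely than the others. HSPB3, a small heat shock protein of muscle, read -0.10, -0.32, -0.01 and -0.11 in IVF-ET and 0.34, -0.02, 0.13, 0.14 and 0.17 in AI. The single negative AI cow overlapped the IVF-ET cows, and the difference of -0.29 had a limma adjusted p of 0.456. With the sign of the AI arrays turned, the AI mean of HSPB3 was -0.15, on the side of the IVF-ET cows.

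SCNT replicate 5 had far more chaperones away from 0 than any other cow. Of the 54 members 7 were beyond 2-fold in it, or 13%, where 9.15% of all probes were. In the other fitted cows at most 1 member was. Over the members its 2 arrays correlated at 0.860, a description across probes that share those arrays. The genes named next, beyond HSPB1, were picked after their values were seen. DNAJC15, a J protein of the mitochondrial inner membrane, read -2.70 and -3.27 on the 2 arrays, and HSPB1 read -2.45 and -3.36. DNAJC12, which helps aromatic amino acid hydroxylases to fold, read 2.08 and 1.99. HSPA2 read -1.91 and -1.23, and 1 probe of DNAJC17, a nuclear J protein, read -1.80 and -1.63 where the gene's other probe read -0.13 and -0.11.

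**Figure D5:**
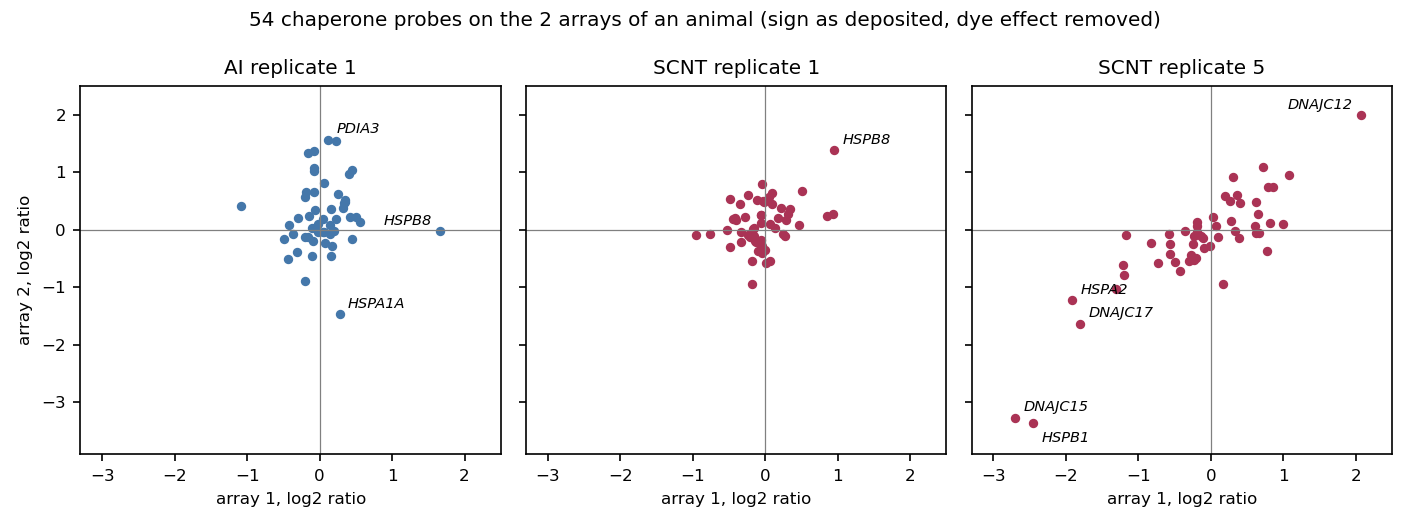
The 54 chaperone probes on array 1 (horizontal) and array 2 (vertical) of 3 cows, as log2 ratios with the deposited sign and the dye effect removed. In SCNT replicate 5 the points follow the diagonal from HSPB1 and DNAJC15 to DNAJC12 (r = 0.860). In AI replicate 1 they do not follow it (r = 0.0596), with PDIA3 high and HSPA1A low on array 2 and HSPB8 high on array 1. SCNT replicate 1 lies between (r = 0.345).

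The departures of SCNT replicate 5 ran both ways within a role. In the endoplasmic reticulum PDIA3 (-1.17) and CALR (-0.997) were negative, while DNAJB9 (0.91), PDIA5 (0.77), DNAJB11 (0.61) and PDIA6 (0.48) were positive. HSPA8 stood at 0.80 in this cow and HSPA1A at 0.55. Outside the 54 members, the genes named next were picked from other folding genes after their values in this cow were seen. HYOU1, an HSP70-like chaperone of the endoplasmic reticulum, read -4.06 and -4.37 on the arrays of SCNT replicate 5. PPIB (cyclophilin B), a prolyl isomerase of the same compartment, read -4.22 and -4.21, and FKBP4, a prolyl isomerase that works with HSP90, read -1.25 and -3.08. In the other SCNT cows PPIB lay between -0.55 and -0.04. Over all probes this cow had 1108 below -1 and 157 above 1, and stromal markers had medians of -1.08 and -1.13 on its arrays. Whether the values are a property of the cow, the RNA or its arrays was not tested.

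Of 69 other genes of protein folding and the unfolded protein response that were listed, 49 were measured. In SCNT cows 0 passed on the positive side and 1 on the negative, where 1.82% of all probes passed. The same counts held for SCNT against AI, where 0.948% of all probes passed. In the other 5 comparisons 0 passed. The median of the 49 was -0.04 in SCNT cows, where it was -0.04 for the members and -0.00 for all probes. The gene that passed was SERPINH1 (HSP47), which folds procollagen in the endoplasmic reticulum and is named a heat shock protein although its symbol lies outside the rule.

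SERPINH1 read -0.52, -0.50, -0.31, -0.76 and -1.09 in SCNT, -0.49, -0.19, -0.44 and -0.54 in IVF-ET and 0.53, 0.25, 1.03, 0.33 and -0.47 in AI. All SCNT and IVF-ET cows were negative and 4 of 5 AI cows positive. The SCNT mean was -0.63 ± 0.15 (limma adjusted p = 0.0476), and SCNT differed from AI by -0.97 ± 0.22 (limma adjusted p = 0.0458). The IVF-ET mean was -0.42, and its difference from the same AI cows did not pass (-0.75, limma adjusted p = 0.315). Both calls were narrow. Leaving out each cow in turn, the SCNT mean passed in 3 of 14 limma fits (without AI replicate 1, 3 or 5), with adjusted p from 0.0145 to 0.118, and the difference passed in 2 (without AI replicate 5 or SCNT replicate 5), from 0.00615 to 0.132. Read as dye ratios, SERPINH1 had an SCNT mean of 0.10, and with the AI sign turned the difference was -0.30, and neither passed. With only the first array of AI replicate 1 the difference was -0.72 (limma adjusted p = 0.356), and the SCNT mean had a limma adjusted p of 0.126. Without the cows whose arrays correlated below 0, the limma adjusted p was 0.0889 for the mean and 0.0915 for the difference. Over the settings other than leaving out a single cow, the limma adjusted p ranged from 0.00484 to 0.855 for the mean and from 0.0208 to 1.00 for the difference. Stromal markers lay on the same side as SERPINH1 in all 14 cows, and their part in it was not tested.

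Reading the deposited values as dye ratios in place of tissue ratios changed which chaperones passed. Under that reading 8 of 54 members passed over all cows in limma, or 14.8%, against 15.3% of all probes. They were PDIA3 (0.25), PDIA4 (0.23), HSPE1 (0.20), DNAJC6 (0.38), DNAJC14 (0.18) and DNAJC16 (0.22) on the positive side and 1 probe of DNAJB6 (-0.24) and CCT4 (-0.20) on the negative. In IVF-ET cows the means of HSP90B1, PDIA3, PDIA4 and DNAJC19 lay on the positive side under it (0.22, 0.19, 0.21 and 0.18) and that of HSPA1A on the negative (-0.17). In AI cows 2 members passed, or 3.7% against 2.62% of all probes, namely PDIA4 (0.50 ± 0.11, limma adjusted p = 0.0193) and PDIA3 (0.51 ± 0.11, limma adjusted p = 0.0205). Under the reading used here, the same dye-following signal is removed as a dye effect, which exceeded 0.2 in size for 8 members, among them DNAJC6 at 0.36 and HSPA1A at -0.23. With tissue ratios and the sign of the AI arrays turned, HSPA1A passed over all cows (0.31 ± 0.07, limma adjusted p = 0.0177), 1 of 54 members or 1.85%, against 3.19% of all probes.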

How the data were processed

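The authors deposited log2 ratios (the base is taken, not stated) of the tissues for 27648 spots on each of 30 arrays, already normalised; per the labels, Cy3 and Cy5 marked the tissues and were exchanged between the 2 arrays of 14 cows. The method of normalisation is not given in the sources used here. Adjacent spots were averaged into 13824 probes, arrays were centred on their median, the dye effect of each probe was removed and the arrays of a cow averaged. Spots with a value numbered 26744 to 27643 per array, and the number of arrays limits the precision.

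limma 3.58.1 in R 4.3.3 (lmFit, eBayes) fitted 13818 probes with a value in at least 4 of 5 AI and SCNT cows and 3 of 4 IVF-ET cows, tested two-sided, with Benjamini-Hochberg adjustment and a threshold of 0.05. Replicates are different cows, numbered in accession order. Scripts were tested on simulated data. Symbols came from the platform annotation, and 51 of 52 member gene IDs were in the RefSeq table of ARS-UCD2.0. Files name no build, so no coordinates are given. Named genes are a fixed list of central chaperones and the CCT genes, and the 3 members with the smallest p per group and difference. Some further genes were named after their values were seen. The members and lists were chosen with earlier results of these data known. Alternatives tried were the reading and sign of the ratio, scaling, centring, blanks, duplicate spots, weights and each cow left out. Other marker lists (glands 6 of 11 genes measured, endothelium 7 of 8, leukocytes 9 of 12, red blood cells 2 of 6, trophoblast 9 of 14, smooth muscle 6 of 8) had SCNT medians of the means of 0.23, -0.00, 0.09, -0.02, -0.43 and -0.12.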

Additional observations from a re-analysis of the deposited data

Results flagged for a closer look

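Of 75 sets of cows examined, each a named chaperone in 1 group, 5 held a cow separated from the rest by a gap wide for the group's range. Chance gives this in about 1 in 20 sets. SCNT replicate 5 was the cow in 4 of the 5. CCT4 stood at -0.91 in it, next to -0.26, CCT7 at -0.65, next to -0.13, and HSPB1 at -2.91, next to 0.03. PDIA6 stood at 0.48 in the same cow, where the other 4 were below 0. In AI cows HSPA9 stood at 0.58 in replicate 2, where the other 4 were below 0.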

How the results depend on the processing

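In limma, the count of 0 members past the threshold changed in 5 combinations of comparison and setting, besides the fits without a cow. Read as dye ratios, it was 2 in AI cows and 8 over all cows. With the AI sign turned it was 1 over all cows. With cows weighted it was 2 in SCNT cows (HSPB8, HSPA1A; 3.7% of members, 5.36% of all probes) and 1 for SCNT against AI (HSPA1A; 1.85% and 1.92%). Leaving out each cow, it ranged from 0 to 1 for SCNT against AI (1 without AI replicate 2 or SCNT replicate 3, where 35 and 56 of 13818 probes passed) and stayed 0 in the other comparisons. The cause was not tested. Of 1953 recomputed means of 25 named genes, 41 moved beyond the spread of the cows or newly passed, 24 of them under the dye reading and 8 with the AI sign turned. A mean cannot move that far when a cow is left out or a group is fitted alone. Such fits could add to the 41 only by newly passing, so 41 of 1953 is no measure of stability. The use of the first array alone for AI replicate 1 was chosen after seeing the data and left every count at 0. The direction and base of the ratio and signal over background are not known. The tissues were paired within each cow. Cows of different groups could not be paired, because replicate numbers name different cows in each group.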
